A study of Mus musculus with 12 samples.

Results

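Swimming was compared with no swimming in cardiomyocytes that carry no functional desmin gene, using the 3 libraries labelled Des-/- Swim and the 3 labelled Des-/- Non_Swim. These 6 of the 12 libraries of the series were selected by genotype and treatment labels, with no measured value involved. All were polyadenylated RNA of adult heart cardiomyocytes from mice aged 3 months, taken straight after enzymatic perfusion of the heart, and sequenced as single-end reads. The remaining 6 libraries, Des+/+ Swim and Des+/+ Non_Swim, have the intact gene and the same age, and serve here to set the Des-/- response against that of normal cardiomyocytes. Per the study's methods each library pooled cells of several mice, with a GFP transgene driven by the cardiomyocyte-specific αMHC promoter in the lines described. The loss of desmin was germline, so every cell of the Des-/- heart lacked it in both groups, and neither the length of the swimming nor the time since the last session is given in the sources used here. The comparison asks which transcripts of the desmin-deficient heart differ after swimming, which the study used as a mild physiological stress.

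Desmin is the intermediate filament of muscle. It links the Z-discs of neighbouring myofibrils to each other, to the cell membrane and to mitochondria and the nucleus, and hearts without it develop mitochondrial defects, cell death, scarring and dilation. Endurance exercise in a normal heart draws on fatty acids, the main cardiac fuel, whose uptake, storage and oxidation are governed by the nuclear receptors PPAR-alpha and PPAR-gamma and their coactivator PGC-1 alpha.

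The targeted gene was measured in every library first. Des (desmin) stood at 72.2, 56.2 and 50.3 CPM (reads of the gene scaled to a common library total) in Non_Swim libraries 1, 2 and 3 of the Des-/- genotype and at 91.3, 97.5 and 101 in the Swim libraries. In Des+/+ it ranged from 973 to 3647 CPM over all 6 libraries, so the labels and the transcript matched in each library. The residual Des-/- reads did not overlap between the groups, with a log2 change (Swim minus Non_Swim) of 0.70 ± 0.32 (SE) and an adjusted p of 0.297 by edgeR's quasi-likelihood test with Benjamini-Hochberg adjustment.

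Reads assigned to genes numbered 8058801 to 11206142 in the Non_Swim libraries and 4320819 to 6521963 in the Swim libraries, so the swimming group was the shallower. A floor of 3 counts corresponded to 0.268 to 0.372 CPM and to 0.46 to 0.694 CPM, respectively. Libraries numbered 3 stood apart from the others in both groups: on the first principal component (57.9% of the variance of the 6 libraries) Non_Swim 3 scored 79.43 and Swim 3 26.02, while the other 4 scored between -50.53 and -3.28. The same pair carried Y-linked transcripts (Ddx3y, Uty, Kdm5d and Eif2s3y, summed) at 179.5 and 272 CPM, against at most 0.995 CPM in each of the other 4. In Des+/+ the same sum was 72.7, 244.7 and 4.06 CPM in Non_Swim and 143.6, 291.6 and 291.4 CPM in Swim 1, 2 and 3, so 4 of the 6 Des-/- pools held almost none of these transcripts while each Des+/+ pool held some. Every difference between genotypes given here carries that imbalance. A fit with Y-linked expression as a covariate, chosen after seeing the data, called 0 genes for the difference in swimming response between genotypes, as did the main fit. With 0 in both fits, the part of the imbalance in any single difference cannot be read from them and was not tested further. Summed marker levels also set number 3 apart. The 14 ventricular cardiomyocyte markers summed to 18330, 36280 and 8051 CPM in Non_Swim 1, 2 and 3 and 33710, 34080 and 20840 in Swim 1, 2 and 3. The 14 fibroblast markers summed to 18600, 14080 and 45310 and 11940, 9494 and 17950, and the 14 macrophage markers to 771, 478 and 4649 and 384, 291 and 1478. Non_Swim 3 had the lowest cardiomyocyte sum and the highest fibroblast and macrophage sums of the 6, and all defining cardiomyocyte markers were abundant in each library. In Des+/+ the cardiomyocyte sums ran from 40620 to 122100 CPM, above every Des-/- library. The fibroblast sums there ran from 5832 to 8069 CPM, below every Des-/- library, while the macrophage sums (264 to 393 CPM) overlapped. Differences between genotypes carry this gap as well, and its part in them was not tested. In bulk RNA, fewer cells of a type and less RNA per cell cannot be told apart.

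**Figure D1:**
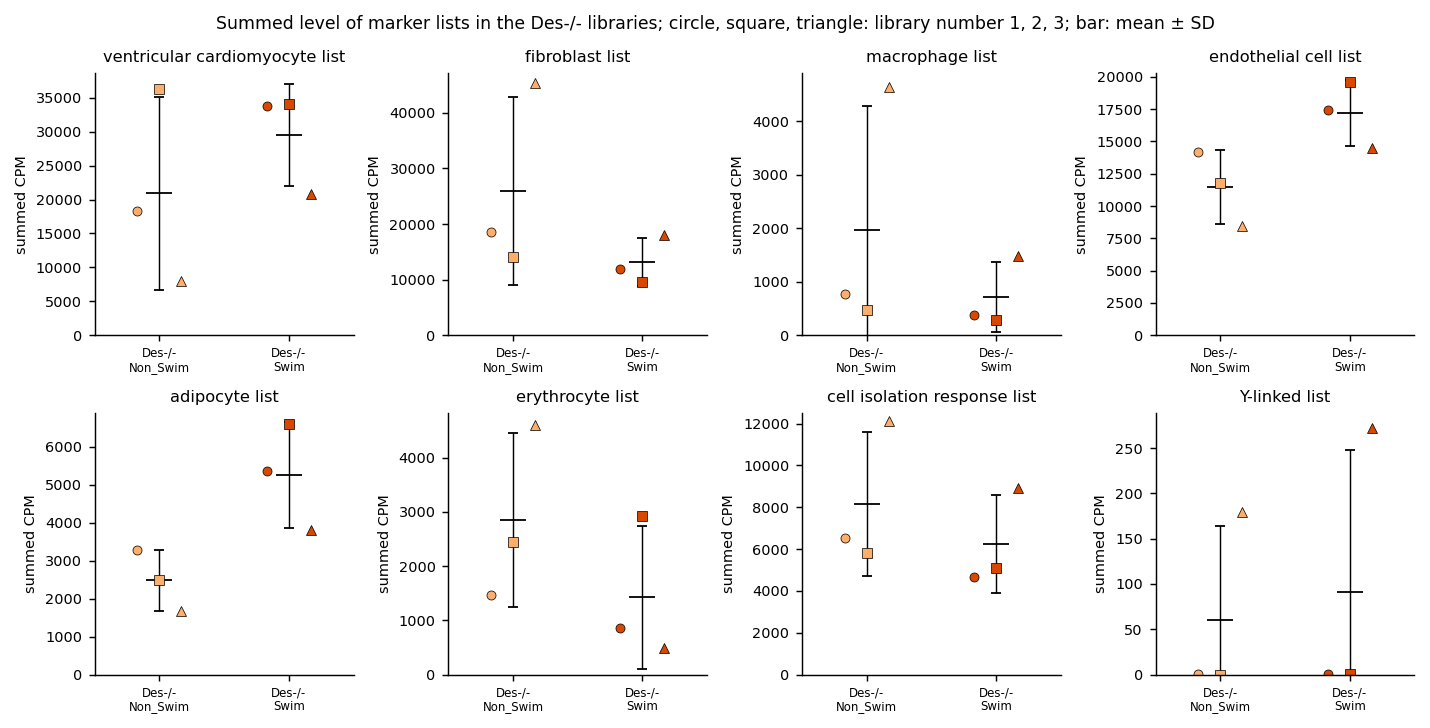
Summed CPM (linear axis from 0) of 8 marker lists in the Des-/- Non_Swim and Swim libraries, 1 panel per list, with circle, square and triangle for libraries 1, 2 and 3 and a bar for the mean ± SD. Non_Swim 3 has the lowest cardiomyocyte sum (8051 CPM) and the highest fibroblast (45310 CPM) and macrophage (4649 CPM) sums of the 6 libraries.

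Of 13158 genes tested, 3 rose after swimming and 0 fell at an adjusted p under 0.05, which is 0.0228% and 0% of the genes. They were Agt, Ercc1 and Pparg. At an unadjusted p under 0.05 there were 2201 genes (1022 higher, 1179 lower) where 658 would be expected from p-values spread evenly, and DESeq2 called 339 (199 higher, 140 lower). The median log2 change over all genes was -0.0129.

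Agt encodes angiotensinogen, the secreted precursor of the angiotensin peptides that raise blood pressure and drive cardiac remodelling. It lies on chromosome 8 at chr8:124556534-124569706 on the minus strand of GRCm38. Its level was 1.28, 1.132 and 1.31 CPM in Non_Swim 1, 2 and 3, and 18.5, 9.84 and 20.01 CPM in Swim 1, 2 and 3. Every swimming library lay above every non-swimming library, the lowest swimming value being 7.501 times the highest non-swimming value. The rise was 12.9-fold, with a log2 change of 3.69 ± 0.38 (SE, n = 3 per group) and an adjusted p of 0.00567 in edgeR's quasi-likelihood test. The mean scaled count behind the non-swimming level was 10.4 reads per library against 135 after swimming, so the size of the rise rests on a low starting count. In Des+/+ the gene stood at 4.01, 7.13 and 5.32 CPM without and 12.2, 14.8 and 23.3 CPM with swimming, a log2 change of 1.61 ± 0.34 (adjusted p = 0.0702). The swimming levels of both genotypes overlapped, whereas the non-swimming level was lower in each Des-/- library than in each Des+/+ library. The difference between the genotypes' log2 changes was 2.08 (unadjusted p = 0.0013, adjusted p = 0.199 in edgeR's test).

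Ercc1 encodes the non-catalytic partner of the XPF endonuclease, which cuts damaged DNA in nucleotide excision repair. It occupies chr7:19344778-19356524 on the plus strand. It was measured at 36.2, 35.7 and 35.9 CPM in the non-swimming libraries and 84.7, 90.5 and 102 CPM in the swimming libraries. The non-swimming values were nearly the same in all 3 libraries and the swimming values all lay far above them. The rise was 2.57-fold (log2 change 1.36 ± 0.14, SE, n = 3 per group, adjusted p = 0.00567, edgeR). In Des+/+ the levels were 24.99, 36.00 and 33.9 CPM and 77.8, 72.9 and 83.2 CPM, a log2 rise of 1.30 ± 0.14 (adjusted p = 0.0092, edgeR). The genotypes' log2 changes differed by 0.063 ± 0.20 (SE, unadjusted p = 0.759).

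Pparg encodes PPAR-gamma, the lipid-sensing nuclear receptor that directs fatty acid storage and is also active in capillary endothelium. It spans chr6:115360951-115490399 on the plus strand. Sedentary libraries 1, 2 and 3 held 46.1, 44.1 and 38.05 CPM, and swimming libraries 78.5, 94.9 and 80.5 CPM. The groups did not overlap and the libraries numbered 3 did not stand out. Pparg rose 1.98-fold (log2 change 0.98 ± 0.13, SE, n = 3 per group, adjusted p = 0.042, edgeR). It also rose in Des+/+, from 42.9, 40.8 and 46.6 to 93.1, 113 and 95.2 CPM (log2 change 1.21 ± 0.13, adjusted p = 0.0092, edgeR), and the difference between genotypes was -0.22 ± 0.18 in log2 (SE, unadjusted p = 0.251).

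The direction of these changes held in all 26 alternative settings, but the calls did not. With only the 6 Des-/- libraries in the fit, or without Non_Swim 1, Non_Swim 2 or both number 1 libraries, none of the 3 passed (adjusted p up to 0.138 for Agt, 0.146 for Ercc1 and 0.41 for Pparg over all alternatives). Ercc1 also missed without both number 2 libraries, and Pparg missed in 15 alternatives in all.

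**Figure D2:**
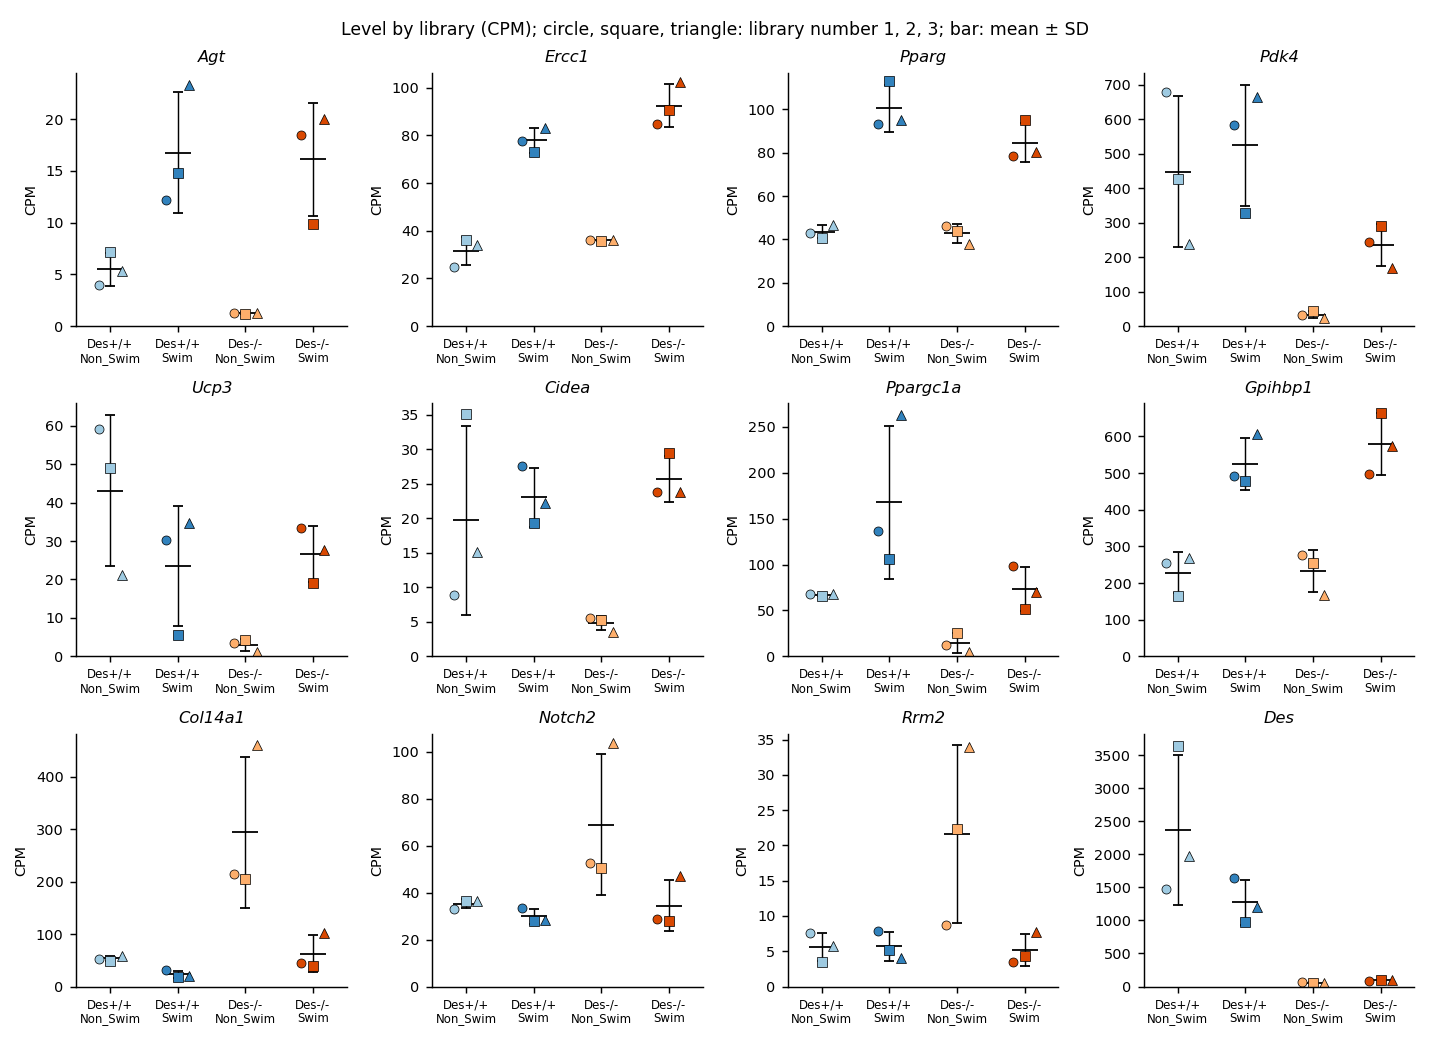
CPM (linear axis from 0) of 12 genes in each of the 12 libraries, 1 panel per gene, by genotype and treatment, with circle, square and triangle for libraries 1, 2 and 3 and a bar for the mean ± SD. For Agt the Des-/- Swim libraries sit between 9.84 and 20.01 CPM and the Des-/- Non_Swim libraries between 1.132 and 1.31 CPM, while for Col14a1, Notch2 and Rrm2 the highest point of all is Des-/- Non_Swim 3.

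Promoter sequence of the called genes, and of Pdk4, described next, is shown to let the regions upstream of the transcripts that rose be compared. These are the 150 bases before each annotated start from RefSeq (GRCm38.p6), 5′ to 3′ on the strand of the gene, with capitals marking matches, on either strand, to AGGTCA (the core letters of nuclear receptor sites) or TATAAA (the TATA box). The first is Agt, at chr8:124569707-124569856 on the minus strand, followed by Ercc1 at chr7:19344921-19345070 on the plus strand, the upstream and second starts of Pparg at chr6:115360994-115361143 and chr6:115362199-115362348 on the plus strand, and Pdk4 at chr6:5496279-5496428 on the minus strand.
Agt: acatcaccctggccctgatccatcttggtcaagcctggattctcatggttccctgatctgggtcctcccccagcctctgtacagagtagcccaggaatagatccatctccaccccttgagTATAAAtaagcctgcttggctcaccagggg
Ercc1: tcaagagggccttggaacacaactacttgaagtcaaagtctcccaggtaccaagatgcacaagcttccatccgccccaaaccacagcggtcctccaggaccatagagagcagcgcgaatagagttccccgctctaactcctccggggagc
Pparg start 1: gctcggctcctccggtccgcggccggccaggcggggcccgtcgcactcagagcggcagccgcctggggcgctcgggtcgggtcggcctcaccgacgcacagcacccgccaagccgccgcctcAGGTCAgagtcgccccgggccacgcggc
Pparg start 2: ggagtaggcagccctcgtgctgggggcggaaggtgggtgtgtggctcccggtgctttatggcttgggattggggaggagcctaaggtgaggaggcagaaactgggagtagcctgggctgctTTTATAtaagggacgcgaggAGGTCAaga
Pdk4: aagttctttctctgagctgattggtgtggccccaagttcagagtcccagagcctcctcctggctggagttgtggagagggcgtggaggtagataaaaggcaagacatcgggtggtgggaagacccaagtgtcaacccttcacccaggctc
Counted from the start, the Agt promoter held TATAAA at position -30. Both Pparg promoters held AGGTCA, at positions -28 and -9, and the second also held TATAAA on the reverse strand at position -29, where it overlapped no other match. Ercc1, Pdk4 and the third annotated Pparg start held neither in these windows, nor TGTTCT (core letters of glucocorticoid receptor sites) or CACGTG (an E-box, the site of the clock factors). Over windows of 300 bases (250 before to 50 after the start), AGGTCA occurred in 16.3% of all 32851 RefSeq promoters and in 12.5% of promoters of genes tested. Among non-overlapping genes that passed the study's filter it occurred in 14.4% of 360 promoters of higher genes and 12.9% of 340 promoters of lower genes. The shares for TATAAA were 13.6%, 7.41%, 6.11% and 7.94% in the same order.

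Genes near the 3 called genes were also measured, up to 50 kb on each side. Ercc1 overlaps the opposite-strand gene Cd3eap at its end, whose log2 change was 0.45 (unadjusted p = 0.184). Ppp1r13l, which encodes an inhibitor of p53, begins 3225 bases beyond Ercc1 and was at 23.8, 30.1 and 32.5 CPM without and 42.2, 54.2 and 87.3 CPM with swimming, without overlap (log2 change 1.09 ± 0.29, adjusted p = 0.186, edgeR). Ckm (muscle creatine kinase) had a log2 change of 1.17, Fosb -1.65, Ercc2 0.33, Rtn2 0.62 and Klc3 0.43. Beside Agt, Cog2 changed by 0.33 in log2 and Capn9 was at 0 in all 6 libraries. None of these neighbours passed the adjusted threshold, and Pparg had no annotated neighbour in the files within that distance.

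Libraries of the same number deviated together from their group means in Des-/- (correlations across genes 0.365, 0.316 and 0.602 for numbers 1, 2 and 3), whereas in Des+/+ they did not (-0.41, -0.257 and 0.006). Deviations from a group mean sum to 0, so number 3 libraries that deviate together also raise the correlations among numbers 1 and 2. Number 3 was set apart by this measure far more than 1 from 2: Non_Swim 1 with Swim 2 gave 0.299 and Non_Swim 2 with Swim 1 gave 0.292, close to the values for 1 with 1 and 2 with 2, so the match of those numbers rests on a small margin, and so do the calls of the blocked fit. With number as a block within each genotype, Des+/+ included, edgeR's quasi-likelihood test called 84 genes, 17 that rose and 67 that fell, which is 0.129% and 0.509% of the genes tested. All 17 were higher in each of the 3 pairs and all 67 lower, while 2877 and 3223 of all genes tested were so. Of the 84, 49 did not overlap between the groups, and 37 were among the 72 genes (15 higher, 57 lower, 0.113% and 0.431% of the 13216 tested) called without the block when both number 3 libraries were left out. Of the 67 that fell, 64 had their highest value in Non_Swim 3.

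Pdk4, the kinase that shuts off pyruvate dehydrogenase and so shifts the heart from glucose to fatty acids, rose in the blocked fit. Its levels were 32.2, 44.8 and 23.4 CPM in the non-swimming libraries and 243, 289.8 and 169 CPM in the swimming libraries. The lowest swimming value lay well above the highest non-swimming value. Its log2 change was 2.81 ± 0.42 (SE, n = 3 per group) with an adjusted p of 0.0606 in edgeR's test without the block, and 2.82 ± 0.34 with 0.0335 in the blocked fit. In Des+/+, where non-swimming levels were already 677, 428 and 239 CPM, the swimming libraries held 582, 327 and 663 CPM (log2 change 0.23 ± 0.38). The difference between genotypes was 2.58 in log2 (unadjusted p = 0.000631, adjusted p = 0.199, edgeR).

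Other genes of fatty acid handling had changes in the same direction. Of 18 tested PPAR-alpha targets, 17 had a log2 change above 0, with a median of 0.39, and 4 passed the study's filter as higher and 0 as lower. That filter (unadjusted p of at most 0.05, log2 change of at least 0.6 in size, mean scaled count of at least 20 in the higher group) passed 456 genes as higher and 676 as lower, 3.47% and 5.14% of those tested. Ucp3, a mitochondrial carrier induced by fatty acids, stood at 3.51, 4.19 and 1.22 CPM without and 33.4, 19.03 and 27.6 CPM with swimming, the second largest increase among non-overlapping genes that passed that filter (log2 change 3.19 ± 0.67, adjusted p = 0.164, edgeR). Ppargc1a, encoding PGC-1 alpha, the coactivator of mitochondrial genes, was at 12.01, 25.9 and 4.37 CPM and 98.1, 51.2 and 70.5 CPM (log2 change 2.39 ± 0.53, adjusted p = 0.164, edgeR). Neither gene's groups overlapped, and Non_Swim 3 was the lowest library for both. In Des+/+ Ucp3 had a log2 change of -0.88 and Ppargc1a of 1.33. The median over the PPAR-alpha targets was -0.53 in Des+/+.

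The list of PPAR-gamma and lipid storage genes had 29 members tested, 22 above 0 and 7 below, with a median log2 change of 0.52 (0.62 without both number 3 libraries). Of these, 8 passed the filter as higher and 1 as lower, against 3.47% and 5.14% of all genes. Lipe, the hormone-sensitive lipase that releases fatty acids from stored triglyceride, rose in the blocked fit (adjusted p = 0.0394, edgeR) from 163, 118 and 94.02 CPM to 261, 263 and 193 CPM, a log2 change of 0.96 ± 0.15. Cidea, a lipid droplet protein that PPAR-gamma induces, was at 5.53, 5.32 and 3.59 CPM and 23.7, 29.5 and 23.9 CPM, which did not overlap (log2 change 2.42 ± 0.42, adjusted p = 0.113, and 0.0506 with the block, edgeR). Fabp4, a fatty acid binding protein of adipocytes and capillary endothelium, was at 3038, 2306 and 1534 CPM and 4954, 6191 and 3496 CPM (log2 change 1.09 ± 0.30, adjusted p = 0.187, edgeR). All 3 genes were higher in every swimming library than in any non-swimming library. The summed level of the list was 10840, 10820 and 7544 CPM without swimming and 16910, 18480 and 12390 CPM with it, without overlap. In Des+/+ the list median was -0.30, with 10 of 29 above 0. Its sums there were 18790, 21530 and 18700 CPM without and 17930, 18100 and 17910 CPM with swimming. Adipocyte markers moved alongside in Des-/-: all 9 tested of 14 were above 0, with a median of 0.98 (-0.86 in Des+/+, with 4 above 0). This list shares Pparg, Lipe, Cidea, Fabp4, Cidec, Adipoq and Plin1 with the lipid storage list. Most of its 9 tested members were therefore counted there already. The fat-cell genes Cidec (1.38, 0.453 and 0.0875 and 2.28, 3.28 and 0.924 CPM), Adipoq (1.17, 0.3397 and 0.0875 and 2.84, 1.31 and 0.154 CPM) and Plin1 (1.17, 0.3397 and 0.262 and 1.28, 0.875 and 0.7697 CPM) were low in all libraries.

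A pair of capillary genes also rose in the blocked fit. Gpihbp1, the endothelial protein that carries lipoprotein lipase to the capillary surface, went from 277, 253 and 168 CPM to 497, 665 and 574 CPM (blocked log2 change 1.34 ± 0.21, adjusted p = 0.0394, edgeR). Rbp7, a retinol binding protein of heart endothelium, went from 301, 229 and 153 CPM to 807, 966 and 729.7 CPM (blocked log2 change 1.92 ± 0.23, adjusted p = 0.0335, edgeR). Both were separated between groups, and both had changes in the same direction in Des+/+ (1.20 and 1.79). The 14 endothelial markers had log2 changes above 0 without exception, with a median of 0.40 (0.54 in Des+/+), and summed to 14150, 11810 and 8487 CPM without and 17440, 19580 and 14510 CPM with swimming. The part of this shift in the capillary genes was not tested.

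The remaining genes that rose in the blocked fit had varied roles. Mt2, a metal-binding metallothionein induced by glucocorticoids and zinc, was at 12.3, 14.2 and 113 CPM and 53.9, 65.4 and 201 CPM: each swimming library exceeded the non-swimming library of its number, but the groups overlapped because of number 3 (blocked log2 change 1.69 ± 0.28, adjusted p = 0.0428, edgeR). Without both number 3 libraries its log2 change was 2.18 (adjusted p = 0.00774, edgeR). Tcf23, a basic helix-loop-helix factor, went from 7.87, 6.68 and 4.81 to 23.3, 24.9 and 11.9 CPM (blocked log2 change 1.59), and Npr3, the clearance receptor for natriuretic peptides, from 26.6, 23.9 and 18.6 to 48.8, 48.99 and 37.3 CPM (blocked log2 change 0.97). Il15ra, a subunit of the interleukin-15 receptor, went from 14.5, 17.2 and 8.397 to 31.1, 31.7 and 22.6 CPM. Hrct1, Tesc, Tinagl1, Mcrip2, Als2cl and Klra8 completed the 17, with blocked log2 changes of 1.72, 1.38, 1.07, 1.27, 0.79 and 3.81. Klra8, a natural killer cell receptor of a family of near-identical genes, was at 0.8504, 1.47 and 0.0875 CPM and 22.3, 15.3 and 0.308 CPM, so its rise rested on Swim 1 and 2. Of the 17, 13 had a log2 change above 0 in Des+/+.

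Nuclear-encoded genes of the respiratory chain, whose products oxidise NADH and succinate and make ATP, were higher as a group. Of 76 tested, 74 had a log2 change above 0 and the median was 0.64 (quartiles 0.45 to 0.75). The filter passed 38 as higher and 0 as lower, against 3.47% and 5.14% of all genes. None passed the adjusted threshold in edgeR's test with or without the block. 35 of the 76 did not overlap between the groups and were higher with swimming, where 10.4% of all genes were higher and 9% lower without overlap. The subunit Ndufb9 of complex I was at 198, 208 and 113 CPM without and 402, 379 and 304 CPM with swimming (log2 change 1.06 ± 0.26, adjusted p = 0.186, edgeR), and the ATP synthase subunit Atp5d at 222, 217 and 169 CPM and 379.8, 418 and 337 CPM (log2 change 0.90 ± 0.21, adjusted p = 0.176, edgeR). In both genes Non_Swim 3 was lowest and each swimming library exceeded each non-swimming one. Summed over the list the levels were 13810, 16370 and 9088 CPM and 22790, 21450 and 15480 CPM. Without Non_Swim 3 the median change was 0.45, and without both number 3 libraries 0.60. In Des+/+ the median was -0.41, with 1 of 76 above 0, and 65 of the 76 had an unadjusted p under 0.05 for the difference between genotypes, all with the larger change in Des-/-. Over all genes this share was 10.1% (and 6.2% in the opposite direction), and 0 genes passed the adjusted threshold for that difference in edgeR's test (smallest adjusted p = 0.174), while DESeq2 called 328.

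Other metabolic, mitochondrial and contractile lists also had medians above 0. The citric acid cycle genes had 19 of 22 above 0 (median 0.22, but -0.021 without Non_Swim 3), the fatty acid oxidation enzymes 22 of 22 (median 0.33), and the glycolytic genes 19 of 27 (median 0.25). Their medians in Des+/+ were -0.59, -0.81 and -0.44. The proteins of the mitochondrial ribosome had 69 of 78 above 0 with a median of 0.27, against 0 of 78 and a median of -0.33 in Des+/+. Of these Mrps34 had the smallest p, at 30.7, 25.03 and 25.7 CPM without and 52.6, 59.05 and 50.03 CPM with swimming (log2 change 0.99 ± 0.17, adjusted p = 0.11, edgeR), without overlap. Sarcomere genes had 24 of 26 above 0 and a median of 0.46, which was 0.078 without Non_Swim 3, the library low in cardiomyocyte markers, and -0.76 in Des+/+. Tnni3 (cardiac troponin I) stood at 979.9, 1054 and 357 CPM and 1833, 1932 and 1066 CPM, with Non_Swim 3 lowest (log2 change 1.01 ± 0.38, adjusted p = 0.245, edgeR). The ventricular cardiomyocyte markers, several of which are sarcomere genes, had a median of 0.61 (0.21 without Non_Swim 3). In Des+/+ the median of these markers was -0.785, with 0 of 14 above 0. Their part in the mitochondrial changes was not tested. Genes of the cytosolic ribosome, many of which have near-identical copies, had 69 of 77 above 0 and a median of 0.28, with 0 passing the filter.

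**Figure D3:**
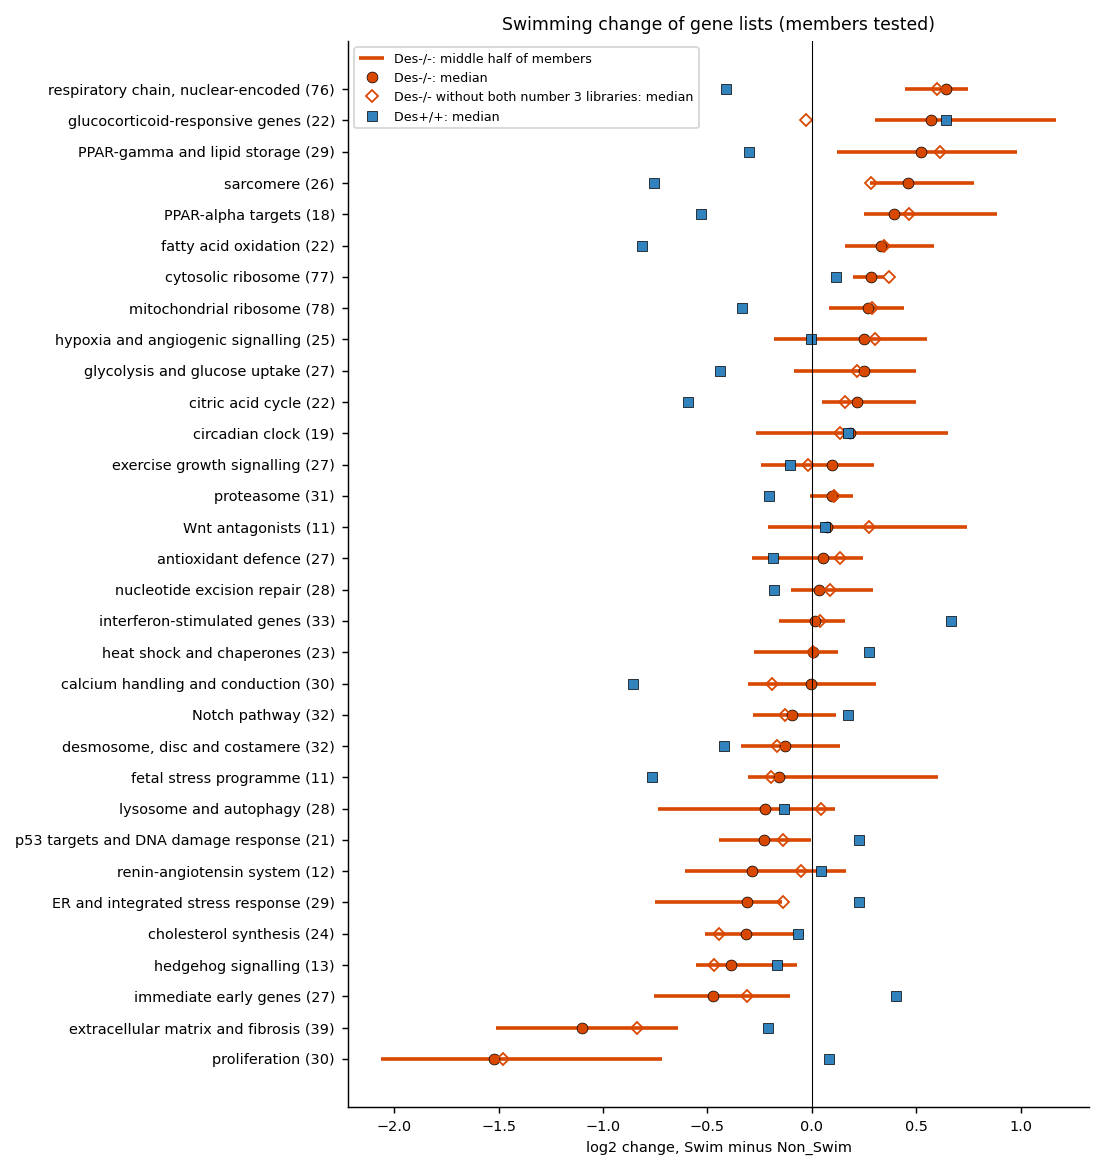
Median log2 change (Swim minus Non_Swim) of each programme list, with the number of members tested in brackets: circles for Des-/- with lines from the lower to the upper quartile, open diamonds for Des-/- without both number 3 libraries, and squares for Des+/+. The respiratory chain (0.64) and sarcomere (0.46) medians lie above 0 in Des-/- and below 0 in Des+/+, while proliferation (-1.52) and extracellular matrix (-1.10) lie lowest in Des-/-.

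Genes of the extracellular matrix were lower after swimming. Of 39 tested, 38 had a log2 change below 0 and the median was -1.10. The filter passed 19 as lower and 1 as higher, against 5.14% and 3.47% of all genes. In the blocked fit 14 fell, and 13 were lower at an adjusted p under 0.05 when both number 3 libraries were left out. Over all genes these shares were 0.509% and 0.431%. Col14a1, a collagen that binds the surface of collagen fibrils, was at 215, 206 and 459.9 CPM without and 44.9, 39.1 and 103 CPM with swimming. Both groups had their highest value in number 3, and the swimming libraries all lay below the non-swimming ones. Its blocked log2 change was -2.27 ± 0.18 (adjusted p = 0.0113, edgeR), and without both number 3 libraries -2.30 (adjusted p = 0.00408, edgeR). The fibrillar collagens Col1a1 (1325, 1252 and 8404 and 417, 530.3 and 2251 CPM) and Col3a1 (2695, 2519 and 16013 and 636, 821 and 4299 CPM) fell in the blocked fit, with log2 changes of -1.60 and -1.87 (adjusted p = 0.0356 and 0.0344, edgeR). For both, Swim 3 lay above Non_Swim 1 and 2, so the groups overlapped and the fall was within pairs. Col6a2, a chain of the microfibrillar collagen around cells, went from 780.1, 695 and 2041 CPM to 246, 341 and 608 CPM without overlap (blocked adjusted p = 0.0335, edgeR), and Timp2, an inhibitor of matrix metalloproteinases, from 522, 481 and 736 CPM to 298, 266 and 401 CPM, also without overlap (blocked adjusted p = 0.0428, edgeR). The exception was Timp3, a matrix-bound inhibitor, at 999, 1002 and 619.7 CPM without and 1809, 1883 and 1726 CPM with swimming, higher in each swimming library (log2 change 1.05 ± 0.27, adjusted p = 0.186, edgeR, and 1.54 in Des+/+). The median over the list was -0.28 without Non_Swim 3 and -0.84 without both number 3 libraries, and -0.21 in Des+/+.

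Genes outside the matrix list also fell in the blocked fit. Adam19, a membrane metalloprotease that sheds growth factors, had the smallest p of the lower genes without the block, at 81.3, 80.1 and 137 CPM without and 31.7, 35.9 and 41.6 CPM with swimming. The groups were far apart and number 3 of the non-swimming group was highest (log2 change -1.45 ± 0.22, adjusted p = 0.0606, and 0.0335 with the block, edgeR). Myh10, a non-muscle myosin, was at 187, 211 and 199 CPM and 89.02, 114 and 123 CPM (blocked log2 change -0.88, adjusted p = 0.0394, edgeR), and Sema3c, a secreted guidance protein of outflow tract development, at 43.2, 60.1 and 57.3 CPM and 18.1, 13.3 and 26.3 CPM (blocked log2 change -1.49, adjusted p = 0.0394, edgeR). Entpd2, an ectonucleotidase that breaks down extracellular ATP, was at 114, 87.99 and 96.04 CPM and 42.8, 45.3 and 57.9 CPM (blocked log2 change -1.03, adjusted p = 0.041, edgeR). In these 3 genes Non_Swim 3 lay between the other non-swimming libraries, and the groups did not overlap. In Des+/+ the log2 change of Myh10 was 0.077 (unadjusted p for the difference between genotypes 0.000493), of Adam19 -1.23, of Sema3c -0.81 and of Entpd2 -0.34. Dact1, Abca9 and Scd2 also fell in the blocked fit, with log2 changes of -1.41, -1.20 and -1.16. Ubfd1, the last of the 10 lower genes with the smallest p, had a log2 change of -0.68 ± 0.13 and did not pass in either fit.

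Markers of fibroblasts and macrophages moved with these genes. All 14 fibroblast markers had log2 changes below 0 (median -0.82, and -0.37 without Non_Swim 3), and 3 of them fell in the blocked fit, each also a member of the matrix list. All 14 macrophage markers were below 0 (median -1.65), but without Non_Swim 3 their median was 0.011, and without both number 3 libraries -0.96. Csf1r, the receptor that macrophages need for survival, was at 85.9, 54.4 and 450.3 CPM without and 27.2, 27.99 and 139.9 CPM with swimming, high in number 3 of both groups (blocked log2 change -1.45 ± 0.23, adjusted p = 0.0403, edgeR). Cx3cr1, the fractalkine receptor of resident macrophages, and Mrc1, the mannose receptor, also fell in the blocked fit (log2 changes -1.52 and -1.48, adjusted p = 0.0394 and 0.0428, edgeR). Over all genes tested 0.509% fell with the block. Of these 67 genes, 14 belonged to the matrix or fibroblast list (39 and 14 members tested). A further 3 belonged to the macrophage list (14 tested) and 2 to the proliferation list (30 tested). Whether the lower matrix transcripts came with fewer fibroblasts in the pools was not tested.

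Genes of cell division were lower in the swimming libraries. The filter passed 18 of the 30 tested as lower, against 5.14% of all genes. Of the 30, 29 had a log2 change below 0, with a median of -1.52, the lowest of the 33 programme lists. It was -0.95 without Non_Swim 3 and -1.48 without both number 3 libraries, and 0.082 in Des+/+. Rrm2, the regulated subunit of ribonucleotide reductase that supplies DNA building blocks, was at 8.72, 22.3 and 33.9 CPM in the non-swimming and 3.41, 4.37 and 7.697 CPM in the swimming libraries. Mcm2, a subunit of the replicative helicase, was at 21.5, 37.3 and 45.8 CPM and 9.67, 12.9 and 20.8 CPM. Both fell in the blocked fit without overlap of the groups (log2 changes -1.96 ± 0.30 and -1.27 ± 0.18, adjusted p = 0.0394 and 0.0356, edgeR). In Des+/+ their log2 changes were 0.029 and 0.15, with an unadjusted p of 0.0122 and 0.0112 for the difference. The mitotic genes were low, the checkpoint kinase Bub1 for example at 3.61, 8.95 and 15.5 CPM and 0.853, 1.53 and 2.46 CPM (adjusted p = 0.192, edgeR). Cdca5, needed for sister chromatid cohesion, had the largest change of the non-overlapping lower genes, at 2.55, 4.76 and 6.65 CPM and 0, 0.437 and 0.924 CPM (log2 change -3.34 ± 0.89, adjusted p = 0.186, edgeR). The other large changes were in immune genes at low levels and in Selenbp2 (-2.77): Cxcl5, a neutrophil chemokine, changed by -3.01, Ptafr, the platelet-activating factor receptor, by -2.84, and the B-cell lectin Cd22 by -2.64 in log2, and none of these 4 passed in either fit of all libraries.

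The Notch and hedgehog pathways carry signals between cells in the developing heart, and the former is central to the study. Among 32 Notch pathway genes 12 were above 0 and 20 below, with a median of -0.10, and 1 fell in the blocked fit. This was Notch2, a receptor, at 52.6, 50.5 and 104 CPM without and 28.7, 27.8 and 46.95 CPM with swimming. Its non-swimming libraries were all higher than the swimming ones, number 3 most of all (blocked log2 change -0.96 ± 0.15, adjusted p = 0.0394, edgeR), and without both number 3 libraries the log2 change was -0.85 (adjusted p = 0.0297, edgeR). Notch1, the receptor that the study examines most, was at 300.4, 319 and 235 CPM and 235, 308 and 253 CPM, with overlapping groups (log2 change -0.10 ± 0.15, adjusted p = 0.761, edgeR). In Des+/+ it was at 240.4, 248 and 259.8 CPM and 426, 416 and 423 CPM (log2 change 0.76 ± 0.15, adjusted p = 0.0627, edgeR), and the difference between genotypes was -0.86 (unadjusted p = 0.00177, adjusted p = 0.199, edgeR). The DNA-binding partner Rbpj and the receptor-cleaving protease Adam10 had log2 changes of -0.58 and -0.49, and Numb, which restrains Notch, 0.46. None of these passed an adjusted threshold. Of 13 hedgehog genes, Gas1, a ligand-binding co-receptor, fell in the blocked fit from 37.9, 41.9 and 66.5 CPM to 18.5, 17.5 and 26.8 CPM (log2 change -1.20 ± 0.17, adjusted p = 0.0344, edgeR), and the list median was -0.39. In Des+/+ Gas1 was at 19.1, 24.3 and 22.1 CPM and 21.7, 20.5 and 27.04 CPM, with an unadjusted p of 0.00236 for the difference between genotypes. The 11 Wnt antagonists tested had a median of 0.072. Of the 24 genes the study follows, Gfra2, a marker of cardiac progenitors, was at 11.1, 10.8 and 12.2 CPM and 2.28, 3.72 and 6.16 CPM (log2 change -1.48 ± 0.36, adjusted p = 0.186, edgeR), Pdgfra, of fibroblasts and progenitors, had a log2 change of -0.83, and the cardiac factor Nkx2-5 of 0.85.

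Agt and Ercc1 were next set beside the other genes of their pathways. In the renin-angiotensin list 12 of 19 members were tested, 4 above 0 and 8 below. The study's filter passed 2 as higher and 3 as lower, against 3.47% and 5.14% of all genes, and Agt alone passed the adjusted threshold. Renin itself (Ren1), the receptors Agtr1b, Agtr2 and Mas1 and the proteases Ctsg and Cma1 were too low to test. The angiotensin-cleaving aminopeptidases Anpep (75.3, 64.4 and 224 and 30.6, 35.6 and 39.1 CPM) and Enpep (46.2, 54.2 and 41.2 and 19.8, 44.4 and 26.9 CPM) had log2 changes of -1.79 ± 0.43 and -0.65 ± 0.24, neither passing. In nucleotide excision repair 16 of 28 genes were above 0 with a median of 0.034. The filter passed 3 as higher and 1 as lower, against 3.47% and 5.14% of all genes. Without overlap 7 were higher and 3 lower, against 10.4% and 9% of all genes. Ercc1 alone passed the adjusted threshold. Its catalytic partner Ercc4 was at 16.8, 16.9 and 15.7 CPM and 17.6, 18.8 and 17.7 CPM (log2 change 0.13 ± 0.17), the damage sensor Ddb2 at 9.46, 8.72 and 9.27 and 13.4, 14.2 and 15.5 CPM (log2 change 0.65 ± 0.18, adjusted p = 0.187, edgeR) and Pcna, the sliding clamp of replication and repair, at 37.1, 50.3 and 66.1 and 29.01, 33.2 and 29.9 CPM (log2 change -0.74 ± 0.21, adjusted p = 0.194, edgeR). Targets of p53 had 16 of 21 below 0 and a median of -0.23, which was -0.034 without Non_Swim 3, with 0 passing the adjusted threshold.

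Glucocorticoid-responsive, clock and immediate early genes respond within hours to stress hormones, time of day and handling. Among 22 glucocorticoid-responsive genes 17 were above 0 with a median of 0.57, but -0.027 without both number 3 libraries, and Fkbp5, the usual reporter of this receptor, was at 38.7, 50.5 and 89.7 CPM and 44.6, 68.2 and 347 CPM, so that Swim 3 alone stood far above the rest. In Des+/+ Fkbp5 stood at 28.4, 20.6 and 52.2 CPM and 319, 141 and 523 CPM. Of 19 clock genes 12 were above 0. The repressors Per2 (26.8, 58.2 and 14.1 and 114, 185 and 73.9 CPM) and Cry1 (16.6, 17.3 and 12.3 and 40.2, 40.02 and 18.6 CPM) were higher in every swimming library (log2 changes 1.91 ± 0.63 and 1.10 ± 0.34, adjusted p = 0.208 and 0.201, edgeR), and had changes of 2.32 and 1.397 in Des+/+. The immediate early genes had 23 of 27 below 0 and a median of -0.47, which became 0.29 without Non_Swim 3. Fosb, for example, was at 135, 294 and 1114 CPM and 132, 145 and 216 CPM, with the non-swimming number 3 far above the rest. The list of genes that cell isolation induces, which overlaps with the former, summed to 6525, 5806 and 12120 CPM without and 4688, 5119 and 8945 CPM with swimming, highest in number 3 of each group.

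In several other programmes no member was called, with or without the block. Over 33 interferon-stimulated genes the median was 0.016, with 17 above 0 and 16 below, against 0.67 and 32 above 0 in Des+/+. The calcium handling genes had a median of -0.006, the proteasome 0.10, chaperones 0.004 and antioxidant enzymes 0.055. Adhesion genes of the desmosome, intercalated disc and costamere, the structures desmin anchors to, had 21 of 32 below 0 and a median of -0.13. Their laminin chain Lama2, of the basement membrane, was at 250.3, 293 and 423 CPM and 132, 177 and 209.8 CPM (log2 change -0.90 ± 0.22, adjusted p = 0.186, edgeR), higher in each non-swimming library. Endoplasmic reticulum and integrated stress genes had 25 of 29 below 0 and a median of -0.31 (-0.17 without Non_Swim 3), and 9 were lower without overlap against 9% of all genes. Cholesterol synthesis genes had 18 of 24 below 0 and a median of -0.31.

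The Des-/- and Des+/+ responses were set side by side across genes. The study's filter passed 562 genes as higher and 796 as lower in Des+/+, of which 73 were higher in both, 40 lower in both and 39 in opposite directions. Of the 456 higher genes in Des-/-, 219 were also above 0 in Des+/+, and of the 676 lower genes 440 were below 0, with a median over all genes of -0.0805 in Des+/+. The log2 changes of the genotypes, which share no library, had a correlation of 0.077 across the 13158 genes, which are not independent replicates. Of the 84 genes called with the block, 62 had the same sign in Des+/+ and 30 had an unadjusted p under 0.05 for the difference. Among the genes in the plot of changes by genotype, the Non_Swim levels of Pdk4, Ucp3 and Agt in Des-/- lay below every Des+/+ library, and the Swim levels of Ucp3 and Agt lay within the Des+/+ range. For Col14a1 and Notch2 the Des-/- Non_Swim libraries lay above every Des+/+ library.

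**Figure D4:**
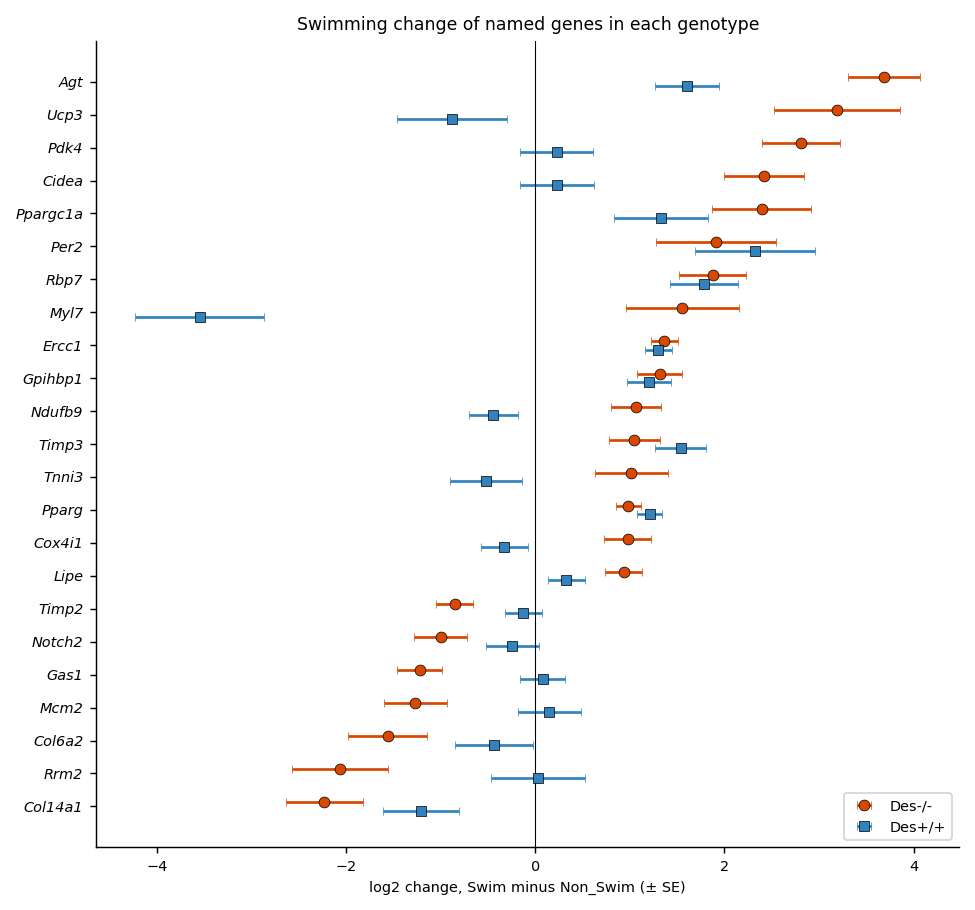
Log2 change with swimming (Swim minus Non_Swim, x axis, ± SE) of named genes, with circles for Des-/- and squares for Des+/+ and a vertical line at 0. Agt, Ercc1 and Pparg lie above 0 in both genotypes, and Ucp3 and Ndufb9 lie above 0 in Des-/- (3.19 and 1.06) and below 0 in Des+/+ (-0.88 and -0.44).

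The share of uniquely aligned reads that fell in no gene was higher after swimming in Des-/-, 52.3%, 49% and 34.2% in Non_Swim 1, 2 and 3 and 58.3%, 64.5% and 57.2% in Swim 1, 2 and 3. The difference of the means was 14.85 percentage points, with a two-sided exact permutation p of 0.1, the smallest that 3 libraries against 3 can give. In Des+/+ the means were 47.85% with and 36.43% without swimming. What these reads were, and their part in the changes above, was not tested.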

How the data were processed

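RNA of cardiomyocytes from the 6 Des-/- and 6 Des+/+ libraries was analysed from the gene counts deposited by the authors, who aligned the reads with HISAT2 (version 2.2.1) to the mouse genome and counted uniquely aligned reads per gene with HTSeq. Counting is stated to use the reverse strand. The library kit differs between the sources, unstranded in the labels and directional in the methods, so reads of overlapping opposite-strand genes such as Ercc1 and Cd3eap may not be fully separated. Reads with several alignments were not counted, which lowers genes with near-identical copies, such as ribosomal proteins, globins, Hspa1a and Klra8. The 5 summary lines of each file (no feature, ambiguous and the like) were left out of library sizes. Of uniquely aligned reads 34.2% to 64.5% lay outside genes in the Des-/- libraries. Genes of the mitochondrial genome were not analysed here (0 of 21493 identifiers), and positions came from matching 21488 of the identifiers to GRCm38.

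Counts were tested with edgeR 4.0.16 in R 4.3.3 (TMM scaling, filterByExpr, glmQLFit and glmQLFTest), with 4 group means over all 12 libraries, 8 residual degrees of freedom and a common biological coefficient of variation of 0.271. P-values were adjusted by Benjamini-Hochberg over all 13158 genes tested and 0.05 was the threshold. CPM was computed on TMM-scaled totals, and given as it stands for each library. Gene levels within a library were not compared with each other, since CPM does not account for length. Library numbers were the labels' replicate numbers. They were taken as pairs for the nested block in both genotypes. In Des+/+ the pairs had correlations of deviations of -0.41, -0.257 and 0.006, so the block there paired libraries that did not deviate together. In Des-/- the correlations were over 0.1 in each pair. Non_Swim 1 with Swim 2 (0.299) and Non_Swim 2 with Swim 1 (0.292) also exceeded 0.1. The correlations therefore do not establish the pairing of 1 with 1 and 2 with 2. No label says what a number stands for. p-values measure the spread between pools. Alternatives were RLE and upper-quartile scaling, no filter on low counts, a mean count of at least 20, a robust dispersion, DESeq2 1.42.0, the 6 Des-/- libraries only, the replicate block, leaving out libraries, and a covariate of Y-linked expression, chosen after seeing the data. Scripts were tested on simulated data.

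The members, gene lists and tests were chosen with earlier results of these data known. Genes were named if they were called, had one of the 10 smallest p-values or 5 largest changes in either direction among non-overlapping genes that passed the study's filter, ranked in the first 4 of a list, or lay within 50 kb of a called gene. Genes named beyond this, such as Ercc4, Notch1 and Fkbp5, and the selection among those called with the block, were chosen after their values were seen. The study's filter was read with an unadjusted p. Promoter sequence was taken from a RefSeq table (GRCm38.p6), which held 10459 of the genes tested.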

Additional observations from a re-analysis of the deposited data

Results flagged for a closer look

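For 10 of the 145 named genes (6.9%, against 267 or 2.03% of all genes tested) the 3 swimming libraries lay entirely on one side of the non-swimming libraries in Des-/- and entirely on the other side in Des+/+. The values are the log2 swimming change in Des-/- minus that in Des+/+ in edgeR's quasi-likelihood fit, and 0 of all genes passed for that difference after adjustment. Since the genes were picked for this pattern, the values are a description. Many named genes were also chosen for groups that do not overlap in Des-/-. Their share is therefore raised by that choice and is no result set against the share of all genes. The atrial myosin light chain Myl7 differed by 5.10, with 2.55, 2.94 and 2.099 CPM without and 5.403, 8.97 and 8.01 CPM with swimming in Des-/- and 3.65, 7.13 and 11.5 CPM and 1.06, 0.749 and 0 CPM in Des+/+. The inducible chaperone Hspa1a differed by -3.53 and the small heat shock protein Cryab, a chaperone of desmin, by 1.25. The Wnt antagonist Sost differed by 2.57. The glycolytic enzyme Aldoa differed by 0.98, the mitochondrial ribosome proteins Mrps18a and Mrps7 by 0.91 and 0.75, and the proteasome subunit Psmc1 by 0.64. Negative differences were also found for the prorenin receptor Atp6ap2, at -0.81, and for Trp53, encoding p53, at -0.57.

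Reads outside genes, which enter no comparison of transcripts, made up a mean of 60.0% of uniquely aligned reads in Des-/- Swim (SD 3.95, n = 3) against 45.2% in Des-/- Non_Swim (SD 9.67, n = 3). Reads with several alignments made up 32.3% and 24.4% of all reads listed. Which sequences these reads came from was not analysed here.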

How the results depend on the processing

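The number of genes called for swimming in Des-/- (3, all higher) depended on the model. It was 7 (5 higher, 2 lower) with no filter on low counts, 339 with DESeq2, 0 with only the 6 Des-/- libraries, 84 with the replicate block nested in genotype and 82 (19 higher, 63 lower) with the replicate block in only those 6, of which 47 were shared with the 84. Leaving out libraries gave 0 to 72: 0 without Non_Swim 1, without Non_Swim 2 or without number 1 of both groups, 1 without number 2 of both, 51 (15 higher, 36 lower) without Swim 3 and 72 without number 3 of both. In the fit of 6 libraries 1520 genes had an unadjusted p under 0.05. With Y-linked expression as a covariate, chosen after seeing the data, 402 genes were called (142 higher, 260 lower). The genes passing the study's filter (1132) numbered 574 to 2063 when a library was left out, with 574 (299 higher, 275 lower) without Non_Swim 3, 733 without Swim 1 and 2063 without Swim 3. DESeq2 called 328 genes for the difference between genotypes where edgeR called 0. The share of reads in no gene differed by 6.577 points with all reads listed as the denominator, in place of 14.85, and by 9.35 to 18.43 when a library was left out. The balance of that filter also turned, from 456 higher and 676 lower to 620 and 598 without number 2 of both groups and 373 and 360 without Swim 1. The causes of these differences were not tested. Fits that leave libraries out also hold fewer samples, and the part of that was not tested either.

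The replicate block left the log2 changes of Agt, Ercc1 and Pparg at 3.65, 1.36 and 0.98, each still called (adjusted p = 0.0146, 0.0335 and 0.0369, edgeR). Of the 84 blocked calls 81 kept their direction in every alternative and the other 3 (Adamts4, Tnc and Pld4) lay above 0 without Non_Swim 3 (log2 changes 0.0619, 0.312 and 0.0882, in place of -2.21, -2.06 and -1.3). Of the 84, 50 were called by DESeq2 and 20 were among the 51 without Swim 3. List medians kept their sign in all 26 alternatives for the lipid, respiratory chain, ribosome, sarcomere, matrix and proliferation lists. The calcium handling median changed sign in 10, chaperones in 8, mural cell markers in 7, interferon and Wnt antagonist lists in 5, and the fetal stress programme and mesothelial markers in 4. Leaving out libraries turned the citric acid cycle median (-0.021 without Non_Swim 3 and -0.02 without number 1 of both groups), those of neutrophil, macrophage, lysosome and immediate early lists without Non_Swim 3, that of the glucocorticoid list without Swim 3 (-0.119), that of Schwann cell markers without Swim 2 (-0.0331), that of the clock list without Swim 1 (-0.00283), that of the adhesion list without Non_Swim 2 (0.022), and those of the Notch and antioxidant lists without number 1 of both groups (0.0275 and -0.0856). The shallower swimming libraries limit genes under about 1 CPM most, and their floors are given with the depths.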

Other observations

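Blood and minor cell types were measured through their markers. The 7 erythrocyte genes tested had a median log2 change of -1.37 in Des-/- and 2.41 in Des+/+, and summed to 1475, 2453 and 4610 CPM in the Non_Swim and 853, 2927 and 492 CPM in the Swim libraries, where Swim 2 lay above 2 of the non-swimming libraries. Without both number 3 libraries the median in Des-/- was -0.12. The adult globin gene Hbb-bs was at 626, 1218 and 2173 CPM and 374, 1319.8 and 215 CPM in Des-/- and 109, 64.7 and 198 CPM and 1039.9, 627 and 929 CPM in Des+/+, with an unadjusted p of 0.0015 for the difference between genotypes. Mural cell markers had a median of 0.025 (12 tested), Schwann cell markers 0.38 (10), mesothelial markers -0.21 (8), atrial markers 0.37 (7), lymphocyte markers -0.61 (7), neutrophil markers -1.23 (4, but 0.67 without Non_Swim 3 and 0.57 without both number 3 libraries) and hepatocyte markers 0.98 (3).

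The remaining programme lists gave mixed directions. Genes of hypoxia and angiogenic signalling had 16 of 25 above 0, a median of 0.25 and 4 passing the study's filter as higher, among them Bnip3, a mitophagy receptor, at 43.05, 50.2 and 39.5 CPM without and 72.7, 105 and 61.9 CPM with swimming (log2 change 0.85 ± 0.20, adjusted p = 0.186, edgeR), and the growth factor Vegfb at 63.2, 90.9 and 42.4 CPM and 136, 131 and 81.9 CPM (log2 change 0.83 ± 0.29, adjusted p = 0.223, edgeR). Lysosome and autophagy genes had a median of -0.23, which was 0.073 without Non_Swim 3 and 0.045 without both number 3 libraries. Exercise growth signalling genes had a median of 0.10 and the fetal stress programme -0.16 (0.11 without Non_Swim 3). Fbxo44, a ubiquitin ligase adaptor, was among the 5 largest non-overlapping increases, at 0.638, 0.679 and 0 CPM and 3.84, 2.84 and 1.08 CPM (log2 change 2.58 ± 0.80, adjusted p = 0.202, edgeR), and Uchl1, a ubiquitin hydrolase, among the 10 smallest p-values, at 9.78, 10.9 and 18.02 CPM and 44.4, 47.02 and 24.6 CPM (log2 change 1.58 ± 0.29, adjusted p = 0.133, edgeR).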
